A study of Mus musculus with 7 samples.

Results

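The Nodal and activin genes are 7 genes of one signalling pathway, Inhbb, Inhba, Nodal, Lefty1, Lefty2, Tdgf1 and Smad7, followed here through histone H3 lysine 27 acetylation (H3K27ac), a mark of active promoters and enhancers. They were chosen by name with earlier results of these data known, so the shares set against all peaks below are no independent comparison. Inhbb was selected on its large loss at 48 h, so its 48 h values are given as a description with no test. For each gene, every merged peak overlapping the gene body plus 30 kb on each side was taken (mm10, GENCODE M21), which gave 82 of the 66841 merged peaks in the table. Mouse embryonic stem cells of the A2Lox line, which carry an HA-tagged NeuroD1 transgene switched on by doxycycline and were grown without feeders, were profiled by ChIP-seq before induction (0 h, no doxycycline) and following 12 h or 48 h in 500 ng/ml doxycycline. NeuroD1 is a proneural transcription factor, and the study used it to drive these cells towards neurons. Each time point had 2 libraries, 6 in all, and all 6 came from the line that carries the transgene. No uninduced library at 12 h or 48 h was analysed here, so time, doxycycline and NeuroD1 cannot be told apart. Nothing in the labels says that the 2 libraries of a time point came from separate cultures, and p-values then measure only the spread between these libraries, which may be technical.

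Nodal and the activins are secreted ligands of the TGF-beta family that bind activin receptors and lead to phosphorylation of Smad2 and Smad3, which enter the nucleus with Smad4 and act on DNA with partners such as FoxH1. Nodal needs the co-receptor Cripto, made by Tdgf1, while activins do not. The pathway limits itself, since Lefty1 and Lefty2 encode secreted Nodal inhibitors and Smad7 encodes an inhibitory Smad that blocks the receptors, and Nodal, Lefty1 and Lefty2 are themselves known targets of the signal. In the early embryo it patterns mesoderm and endoderm, and mouse embryonic stem cells are known to express Nodal, the Leftys and Tdgf1.

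Short stretches of some of the peaks described below, not always the strongest of their gene, are printed first, because the known FoxH1 enhancers of the pathway lie at Nodal and Lefty2 and because NeuroD1 binds E-boxes. The sequences are from the GRCm38 reference (mm10), all on the plus strand. Capitals mark a FoxH1 motif searched as AATCCACA or its reverse complement TGTGGATT, the E-box CAGATG or CATCTG, and the octamer ATGCAAAT or ATTTGCAT bound by Oct4. Both Nodal stretches lie inside the gene between its exons, at chr10:61419239-61419366 and chr10:61420033-61420160, with their motifs 1327 and 2121 bases downstream of the gene start.
Nodal intron site 1: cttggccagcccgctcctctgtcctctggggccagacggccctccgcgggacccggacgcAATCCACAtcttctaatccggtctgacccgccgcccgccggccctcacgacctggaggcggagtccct
Nodal intron site 2: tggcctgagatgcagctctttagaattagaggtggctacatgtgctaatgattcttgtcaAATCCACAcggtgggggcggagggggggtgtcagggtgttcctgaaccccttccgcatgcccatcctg
The Lefty2 stretch is intergenic, at chr1:180888833-180889043, centred 4170 bases upstream of the gene start. Its first FoxH1 motif overlaps an E-box by 2 bases.
Lefty2 upstream pair: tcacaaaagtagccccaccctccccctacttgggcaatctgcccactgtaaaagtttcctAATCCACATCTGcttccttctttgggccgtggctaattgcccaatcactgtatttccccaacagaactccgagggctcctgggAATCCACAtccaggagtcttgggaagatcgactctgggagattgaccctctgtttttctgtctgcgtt
The Lefty1 stretch is intergenic too, at chr1:180923604-180923763, and holds 1 octamer and 1 E-box.
Lefty1 upstream: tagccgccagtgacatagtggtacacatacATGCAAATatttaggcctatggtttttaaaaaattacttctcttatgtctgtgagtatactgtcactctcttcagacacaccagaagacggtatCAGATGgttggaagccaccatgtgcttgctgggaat
The Inhbb stretch, at chr1:119401425-119401598, is intergenic and lies past the 3′ end of the gene, which is on the minus strand. It was printed because it holds 3 of the 7 E-boxes of that peak.
Inhbb downstream cluster: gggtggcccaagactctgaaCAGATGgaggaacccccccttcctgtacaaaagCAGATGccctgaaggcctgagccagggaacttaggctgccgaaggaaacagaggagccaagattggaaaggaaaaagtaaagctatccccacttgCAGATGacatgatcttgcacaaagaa

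The FoxH1 letters occurred in 5 of the 82 member peaks and in 3.81% of the 66783 merged peaks on the main chromosomes. The E-box letters occurred in 43 of the 82 and in 43.8% of all peaks, and the octamer in 9 of the 82 and in 5.13%. Longer peaks hold more letters, so each peak was also set against peaks within 20% of its own width. The Nodal peak held 2 FoxH1 matches, as did 3.45% of 493 peaks of like width in which at least as many were found. The Lefty2 peak also held 2, reached by 7.0% of 200 such peaks, and the Inhbb downstream peak held 7 E-boxes, reached by 8.44% of 1754. The Lefty1 upstream peak held 1 octamer, a number reached by 14.5% of 3677 such peaks, and 5 E-boxes, reached by 8.78%. These matches describe the windows and say nothing of binding.

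Each library held between 6283103 and 8112895 reads in the merged peaks. Counts were scaled to the mean column total of 6976014, and "scaled count" below means reads per peak after that step. The libraries of 48 h differed most from each other, with a chi-square per degree of freedom of 5.54 between them against 1.79 at 0 h and 1.42 at 12 h. All 8 stem cell markers checked had a promoter peak, and their summed scaled counts were 17537 and 17824 at 0 h, 19593 and 19708 at 12 h, then 11823 and 14906 at 48 h. Their sum was thus highest at 12 h and lowest at 48 h, a course that some of the pathway peaks below also took. Single markers differed from the sum. At 12 h Tfcp2l1 was called lower (log2 -0.84), and Nanog and Klf4 were lower without a call (-0.28 each). Pou5f1, Sox2, Esrrb, Zfp42 and Dppa5a were then higher without a call (0.04 to 0.35). Of these 8, the promoter peaks of Nanog, Esrrb, Tfcp2l1 and Dppa5a fell at 48 h against 0 h. Those of Pou5f1, Sox2, Zfp42 and Klf4 were not called in that comparison. Among 6 neuronal markers 5 had a peak, with a median log2 change of 0.01 at 48 h against 0 h. Of these, Tubb3 and Rbfox3 rose at 48 h (log2 1.25 and 1.48). The Rbfox3 rise lay mostly in the first 48 h library, with scaled counts of 17.4 and 17 at 0 h and 77.7 and 21.5 at 48 h. Elavl3 fell at 12 h (-1.78) and was not called at 48 h (-0.48, adjusted p = 0.51), and Stmn2 (-0.09) and Map2 (0.01) were not called. Of 7 fibroblast markers only Col1a1 had a peak, summing to between 5 and 17 scaled counts, and none of 4 endoderm markers (Sox17, Gata6, Gata4 and Sox7) had one. In such bulk libraries, fewer cells with a mark and less mark per cell cannot be told apart. What part the change of stem cell markers had in the results was not tested.

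Across the pathway windows, few peaks changed at 12 h, and losses made up nearly all of the changes called at 48 h. Tests used edgeR's quasi-likelihood fit to all 66841 peaks with Benjamini-Hochberg adjustment, and a peak was called at an adjusted p under 0.05. Against 0 h, 6 of the 82 peaks rose at 12 h (7.32%), set against 9.93% of all merged peaks, and 1 fell (1.22%), against 6.03%. Between 48 h and 0 h, 15 of the 72 peaks outside the Inhbb window fell (20.8%, against 5.45% of all peaks) and 2 rose (2.78%, against 8.56%). The losses lay in the windows of Lefty1 (8, of which 4 are shared with Lefty2), Smad7 (5) and Nodal (2), and none in that of Tdgf1. They include the promoter peak of the neighbour Tmem63a. Several are adjacent, so the peaks are not independent of each other. From 12 h to 48 h, 17 of the 72 fell (23.6%, against 8.43%) and 1 rose (1.39%, against 10.7%). The median log2 fold change of the 72 peaks from 0 h to 48 h was -0.46, beside -0.04 over all peaks. At 12 h the median of the 82 was -0.01, beside -0.08.

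The libraries were also compared by rank, without a model. Both 48 h libraries lay below the other 4 in 29 of the 72 peaks (40.3%, beside 15.0% of all merged peaks). The pair of 12 h libraries was the highest in 18 of the 72 (25.0%, beside 17.8%). In the 10 Inhbb peaks these counts were 9 and 5. Both counts use the low 48 h values for which Inhbb was chosen, so they are not set against all peaks. The full order of 12 h above 0 h above 48 h with no overlap held in 11 of the 72 (15.3%, beside 3.82%). The 3 comparisons share libraries and are not independent of each other. For the other fits that follow, shares over all merged peaks are not given. Their counts show only how far the calls depend on the fit. The 15 losses at 48 h became 7 without the first 0 h library and 4 without the second, and DESeq2 gave 9. The 17 losses from 12 h became 9 and 8 without the first or second 12 h library. The 7 calls at 12 h became 17 in the fit to the 4 libraries compared, and at most 1 was left without any 1 of the 0 h or 12 h libraries.

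**Figure D1:**
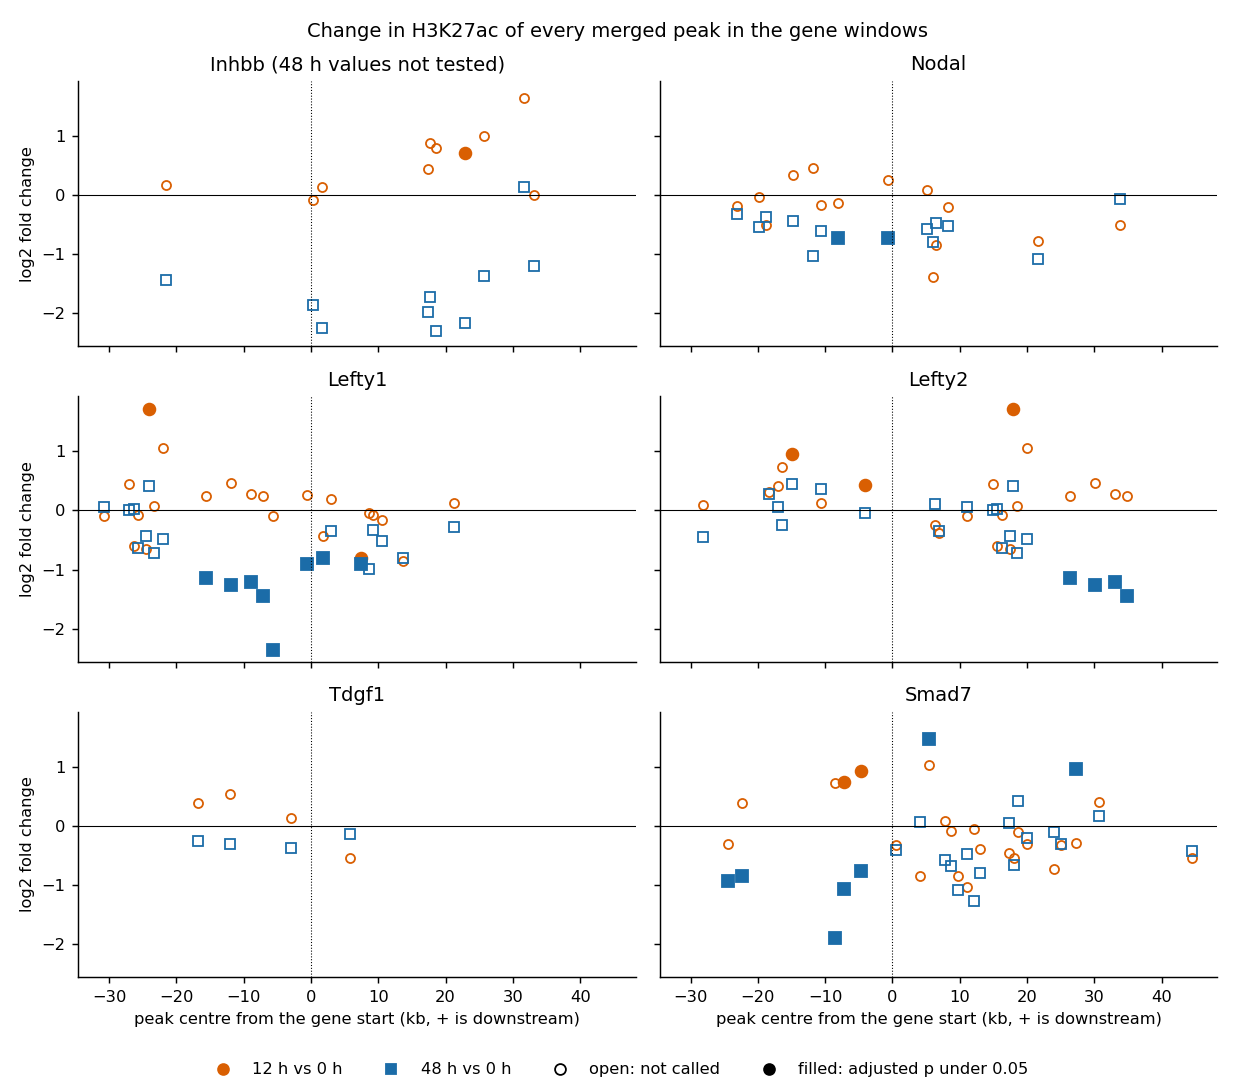
Log2 fold change of every merged peak (y axis) against the distance of its centre from the gene start in kb (x axis), for 12 h against 0 h (circles) and 48 h against 0 h (squares). Filled symbols were called at an adjusted p under 0.05; the 9 of 10 Inhbb peaks below 0 at 48 h were not tested, and the filled squares below 0 of Lefty1 and Smad7 lie mostly upstream of the gene starts.

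Nodal, the ligand that gives the pathway its name, lost H3K27ac at 48 h in its main peak. This peak (chr10:61413076-61421616) covers the gene start and most of the first intron, with both FoxH1 stretches printed above. Its scaled counts were 1051 and 1056 at 0 h, 1259.9 and 1268 at 12 h, then 634 and 645 at 48 h. The 3 time points did not overlap, and the libraries of each lay within 11 scaled counts of one another. The log2 fold change was 0.26 ± 0.14 (SE) from 0 h to 12 h (adjusted p = 0.21, but 0.013 in the fit to the 4 libraries compared), -0.72 ± 0.15 for 48 h against 0 h (adjusted p = 0.0014) and -0.98 ± 0.15 at 48 h against 12 h (adjusted p = 0.00012). The last of these was called under all 13 alternatives, and the loss against 0 h was called under 12, missing the threshold without the second 0 h library (adjusted p = 0.06, range over alternatives 1.5e-08 to 0.06).

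An intergenic peak 8.1 kb upstream of Nodal (from 61408698) had scaled counts of 158 and 182 at 0 h, 172 and 136 at 12 h, then 104 and 102 at 48 h. Both 48 h libraries were the lowest, while 0 h and 12 h overlapped. It fell by 0.72 ± 0.22 by 48 h on the log2 scale (adjusted p = 0.03), a call lost with TMM factors (adjusted p = 0.055), with DESeq2 (adjusted p = 0.13) and in 5 further alternatives (range 0.003 to 0.3). All 14 peaks of the window were below 0 at 48 h, from -1.08 to -0.06 on the log2 scale, but only these 2 were called. The peak with the next highest count, with 347.9 and 384 scaled counts at 0 h, 270.2 and 248 at 12 h, then 392 and 312 at 48 h, covers the promoter of the neighbour Eif4ebp2, which encodes a translation repressor, and was not called at any time in the fit to all 6 libraries, though it was lower at 12 h in the fit to the 4 libraries compared (log2 -0.50, adjusted p = 0.00052).

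Inhbb encodes the beta B subunit, whose dimer is activin B. Its promoter peak (chr1:119421216-119422785) had scaled counts of 92.4 and 149.7 at 0 h, 119 and 109 at 12 h, then 44.4 and 24.1 at 48 h. The 12 h libraries lay between those of 0 h, and both 48 h libraries were lowest. The log2 fold change at 12 h was -0.09 ± 0.27 (adjusted p = 0.84), and that at 48 h was -1.85, a fold of 0.278. The direction of the 12 h value turned with an offset for GC content (0.34) and without the second 0 h library (0.30).

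The strongest peak of the Inhbb window was not at the promoter. It was an intergenic peak of 4850 bp (chr1:119396899-119401748), centred 22.9 kb downstream of the gene start, which holds the E-box stretch printed above. Its scaled counts were 271 and 359.8 at 0 h, 518 and 507 at 12 h, then 58.8 and 80.8 at 48 h. It therefore rose before it was lost, with no overlap between time points. The gain at 12 h was 1.62-fold (log2 0.70 ± 0.19, adjusted p = 0.014), and the level at 48 h was 0.224 of that at 0 h. The gain kept its direction but missed the threshold without any 1 of the 0 h or 12 h libraries (log2 0.51 to 0.92, adjusted p = 0.073 to 0.23).

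The other 8 Inhbb peaks were weak, with at most 70.1 scaled counts in any library. One of them (from 119420153) lies 1.6 kb inside the gene start, with 32.8 and 70.1 at 0 h, 64.3 and 48.8 at 12 h, then 11.1 and 10.3 at 48 h. Another (from 119396237), next to the strong downstream peak, had 11.3 and 19.1 at 0 h, 32.2 and 28.5 at 12 h, then 6.66 and 5.16 at 48 h. Its 12 h libraries were highest and its 48 h libraries lowest, as in its neighbour, but the gain was not called (log2 0.99 ± 0.39, adjusted p = 0.086) except in the fit to the 4 libraries compared, with the offset for GC content and without either 48 h library (adjusted p = 0.023 to 0.047). Over the 10 peaks the log2 change at 48 h ran from -2.29 to 0.13, and the single value above 0 belonged to a peak with between 1.03 and 10.1 scaled counts.

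Inhba, which encodes the beta A subunit of activin A, had no merged peak in its window (chr13:16011851-16031621 plus 30 kb), and the nearest merged peak lay 185577 bases away. Since the table lists only called peaks, this says that no peak was called there and sets no upper limit on its acetylation.

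Tdgf1 encodes Cripto, the co-receptor of Nodal. One broad peak of 16775 bp (chr9:110940724-110957498) covers its start and that of its neighbour Lrrc2, so the signal of the 2 genes cannot be separated. Its scaled counts were 3480 and 3453 at 0 h, 3844 and 3819 at 12 h, then 2227 and 3096 at 48 h. The 12 h libraries were highest and the 48 h libraries lowest, but those of 48 h differed from each other by more than 0 h and 12 h did. The change from 12 h to 48 h was -0.52 ± 0.14 on the log2 scale (adjusted p = 0.012), and that from 0 h to 48 h was -0.38 ± 0.14, which was not called (adjusted p = 0.072). The latter passed the threshold with the offset for GC content (adjusted p = 0.0056) and without the second 48 h library (log2 -0.64), and stood at -0.16 without the first. The former missed it without either 12 h library (adjusted p = 0.13 and 0.15, range over alternatives 5.8e-16 to 0.15).

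Both peaks over Lrrc2 upstream of Tdgf1 behaved likewise. The stronger (from 110959094) had 946 and 947 at 0 h, 1229 and 1249 at 12 h, then 601 and 976 at 48 h, so that the second 48 h library lay above both of 0 h. It fell by 0.65 ± 0.17 from 12 h to 48 h (adjusted p = 0.012) and was not called against 0 h (log2 -0.26 ± 0.18, adjusted p = 0.36), a value that became -0.66 without the second 48 h library (adjusted p = 8.9e-07). The weaker (from 110957600) had 88.3 and 81.7 at 0 h, 129 and 117 at 12 h, then 62.2 and 73.9 at 48 h, with no overlap, and its log2 change from 12 h was -0.84 ± 0.24 (adjusted p = 0.017). The calls of both were lost without either 12 h library (adjusted p = 0.11 to 0.17).

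**Figure D2:**
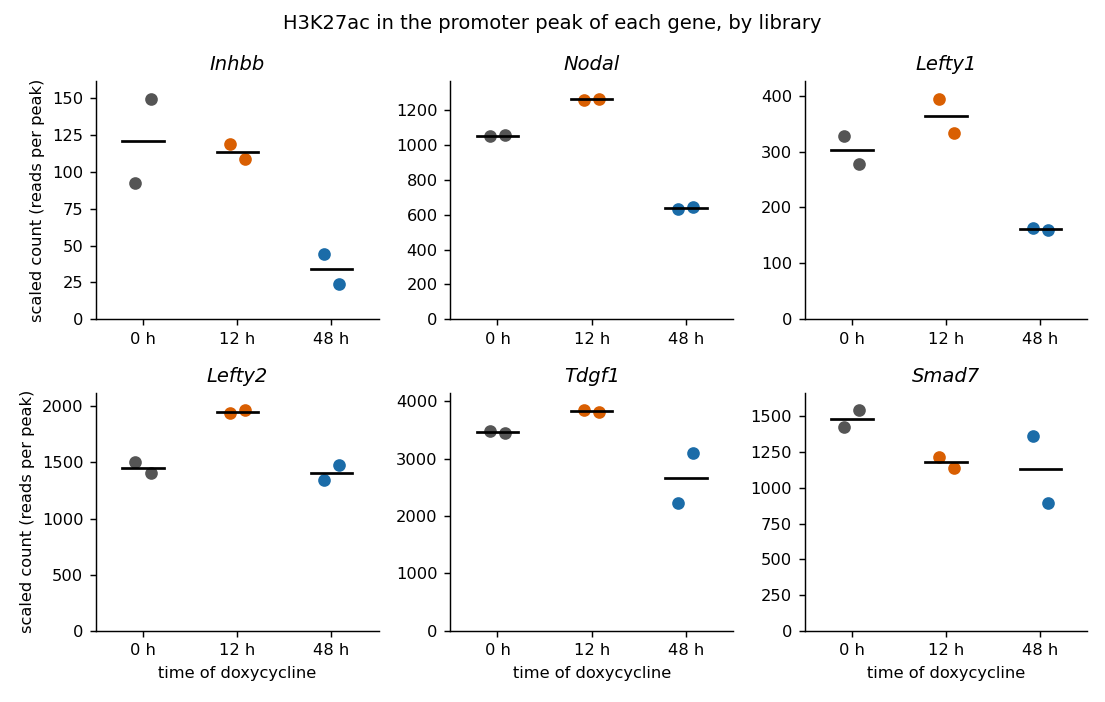
Scaled count (reads per peak, y axis from 0) of the promoter peak of each of the 6 genes that had one, for the 2 libraries of each time point (points) and their mean (bars). The 48 h points of Nodal (634 and 645) and Lefty1 (163 and 159.9) lie well below the rest, while those of Lefty2 (1343 and 1475) overlap those of 0 h.

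Lefty1 encodes a secreted inhibitor that binds Nodal and its co-receptor. Its promoter peak (chr1:180932867-180935995) had scaled counts of 328 and 278 at 0 h, 395 and 334 at 12 h, then 163 and 159.9 at 48 h. Both 48 h libraries were lowest, and both 12 h libraries were above those of 0 h by a margin smaller than the spread within them. The change was 0.26 ± 0.18 at 12 h (adjusted p = 0.33), -0.91 ± 0.19 at 48 h against 0 h (adjusted p = 0.0019) and -1.17 ± 0.19 against 12 h (adjusted p = 0.00027). The loss against 12 h held under all 13 alternatives, and that against 0 h missed the threshold only without the first 0 h library (adjusted p = 0.067, range 1.1e-06 to 0.067). A second peak 1.8 kb inside the gene (from 180936186) had 114 and 111 at 0 h, 89.0 and 77.3 at 12 h, then 64.4 and 64.5 at 48 h, without overlap. Its log2 change at 48 h was -0.80 ± 0.24 (adjusted p = 0.027), not called by DESeq2 (adjusted p = 0.14) or in 5 other alternatives (range 0.0085 to 0.19).

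Upstream of Lefty1, 3 neighbouring intergenic peaks were lost at 48 h, with larger log2 changes than the promoter, a difference between peaks that was not tested. The first, centred 11.8 kb upstream (chr1:180921579-180924807) and holding the octamer stretch printed above, had 269 and 280.2 at 0 h, 407 and 350.5 at 12 h, then 101 and 127 at 48 h. The second, 8.9 kb upstream, had 198 and 214 at 0 h, 249 and 248 at 12 h, then 85.5 and 92.9 at 48 h. The third, 7.1 kb upstream, had 55.4 and 50.9 at 0 h, 65.4 and 60.7 at 12 h, then 20 and 18.9 at 48 h. In each of these 3 peaks both 12 h libraries were highest and both 48 h libraries lowest. The log2 changes against 0 h were -1.26 ± 0.20, -1.21 ± 0.21 and -1.45 ± 0.31 (adjusted p = 0.0001, 0.00029 and 0.0025), and those against 12 h were -1.72 ± 0.20, -1.47 ± 0.21 and -1.69 ± 0.31 (adjusted p = 1.1e-05, 7.6e-05 and 0.00071). All 6 of these calls held under every one of the 13 alternatives, and none of the 3 gains at 12 h was called (adjusted p = 0.09, 0.35 and 0.55), though the first was in the fit to the 4 libraries compared (adjusted p = 0.0012).

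Weaker peaks of the same stretch were called too. A peak 15.6 kb upstream (from 180919054) held 34.9 and 34.0 at 0 h, 33.2 and 47.8 at 12 h, then 17.8 and 13.8 at 48 h, and fell by 1.14 ± 0.36 at 48 h (adjusted p = 0.036), a call that 7 of 13 alternatives lost. A peak 24.0 kb upstream (from 180910788) rose at 12 h from 6.16 and 7.43 to 20.4 and 24.8 and then stood at 6.66 and 11.2. Its gain of 1.72 ± 0.49 on the log2 scale (adjusted p = 0.019) was lost without any 1 of the 0 h or 12 h libraries (adjusted p = 0.075 to 0.2), and DESeq2 gave it no adjusted p. It fell from 12 h to 48 h (log2 -1.30 ± 0.46, adjusted p = 0.047), a call lost in the fit to the 4 libraries compared and without any 1 of the 0 h or 12 h libraries or the first 48 h library (adjusted p = 0.068 to 0.31). Downstream of Lefty1, the promoter peak of the neighbour Tmem63a, an ion channel gene, had 213.5 and 203 at 0 h, 117 and 121 at 12 h, then 131 and 92.9 at 48 h. Both later time points lay below 0 h, with log2 changes of -0.81 ± 0.22 and -0.90 ± 0.22 (adjusted p = 0.015 and 0.0071). It was thus the only peak of the windows that was called lower at 12 h, a call lost with the offset for GC content (adjusted p = 0.078), with DESeq2 (adjusted p = 0.053) and without any 1 of the 0 h or 12 h libraries (range over alternatives 5.7e-06 to 0.17). In all, 8 of the 22 peaks of the Lefty1 window fell at 48 h against 0 h, with log2 changes over the window from -2.35 to 0.42.

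Lefty2, the neighbouring gene and a second Nodal inhibitor, rose in its main peak at 12 h and stood near its 0 h level at 48 h. Whether its change differed from that of Lefty1 was not tested. This peak of 12346 bp (chr1:180882891-180895236) covers the start of the gene and the upstream stretch with both FoxH1 motifs. Its scaled counts were 1501 and 1403 at 0 h, 1937.5 and 1964 at 12 h, then 1343 and 1475 at 48 h. Both 12 h libraries stood apart, and the libraries of 48 h overlapped those of 0 h. It rose by 0.43 ± 0.14 at 12 h (adjusted p = 0.036) and fell by 0.47 ± 0.14 from 12 h to 48 h (adjusted p = 0.019), with a net change of -0.04 ± 0.14 (adjusted p = 0.88). The gain was lost with the replicate number as a block (adjusted p = 0.058) and without any 1 of the 0 h or 12 h libraries (adjusted p = 0.15 to 0.31). The fall was lost in the fit to the 4 libraries compared (adjusted p = 0.06) and without any 1 of the 0 h or 12 h libraries (adjusted p = 0.055 to 0.22).

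A weaker peak 14.8 kb upstream of Lefty2 (from 180877786), which also holds a FoxH1 match, had 32.8 and 20.2 at 0 h, 51.5 in both 12 h libraries, and 32.2 and 39.6 at 48 h. It rose at 12 h by 0.95 ± 0.32 (adjusted p = 0.043), not called by DESeq2 (adjusted p = 0.13) or without any 1 of the 0 h or 12 h libraries (adjusted p = 0.07 to 0.38). The windows of Lefty1 and Lefty2 share 12 peaks, so the losses upstream of Lefty1 count in both, and they are the 4 called losses of the Lefty2 window at 48 h against 0 h.

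**Figure D3:**
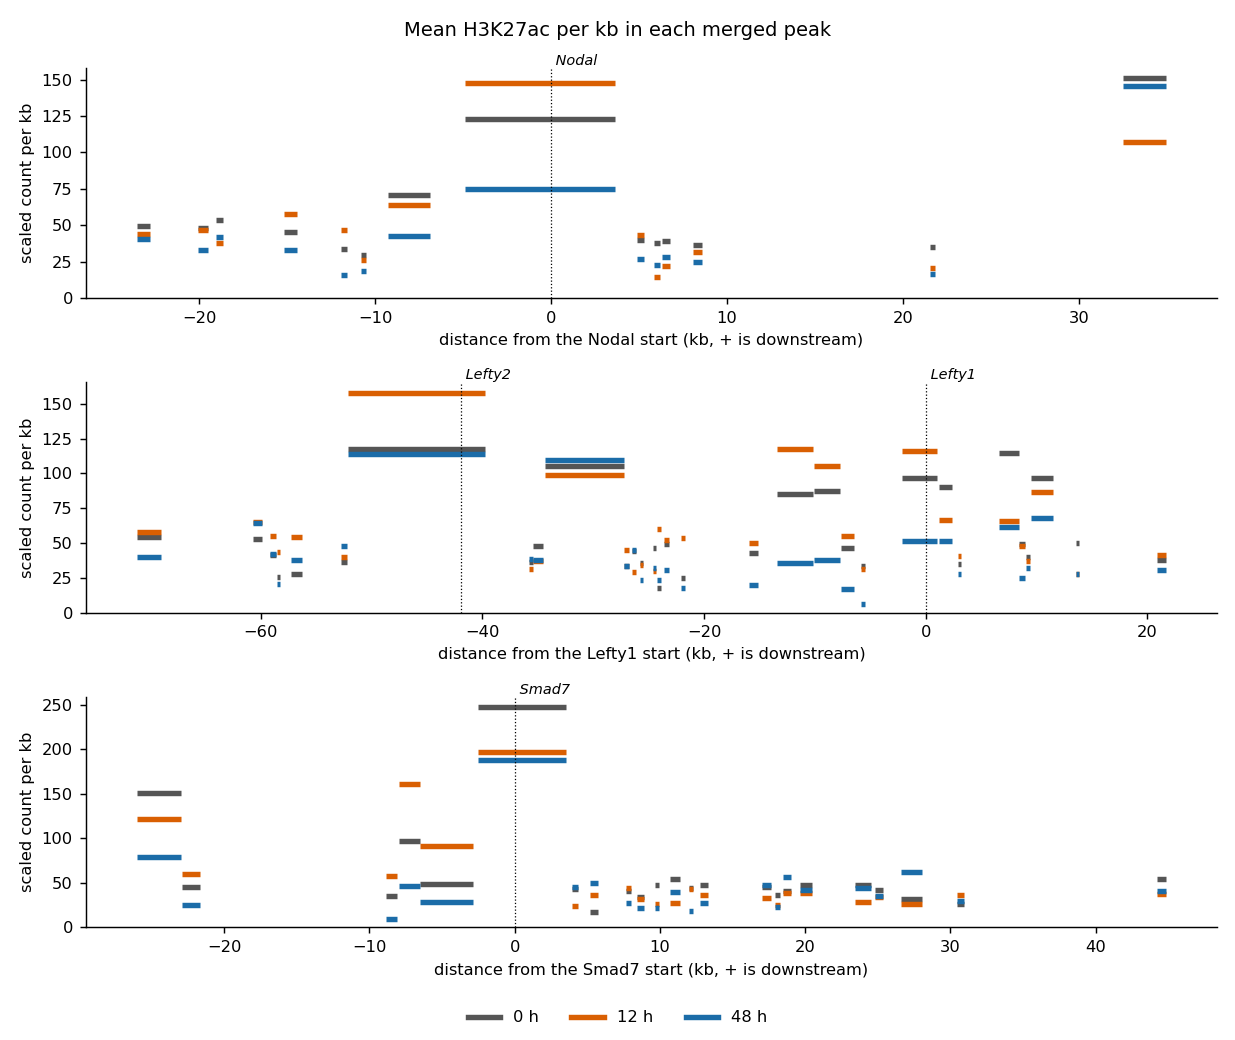
Mean scaled count per kb (y axis) of each merged peak, drawn over its width, against the distance from the gene start in kb (x axis), for 0 h, 12 h and 48 h. In the Lefty map the 48 h line of the Lefty2 peak sits beside that of 0 h, while in the 3 peaks between 7.1 and 11.8 kb upstream of Lefty1, and between 4.7 and 8.5 kb upstream of Smad7, the 48 h lines lie lowest and the 12 h lines highest.

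Smad7 encodes the inhibitory Smad that is itself switched on by the pathway. Its promoter peak (chr18:75365035-75371046) had scaled counts of 1425 and 1542 at 0 h, 1218 and 1141 at 12 h, then 1363 and 895 at 48 h. The libraries of 48 h enclosed those of 12 h, and no change was called (log2 -0.33 ± 0.16 after 12 h and -0.40 ± 0.17 after 48 h, with adjusted p of 0.17 and 0.12). Both depended on the libraries fitted. The 12 h value was called in the fit to the 4 libraries compared (adjusted p = 0.00079). Without the first 48 h library the changes at 48 h were -0.73 against 0 h and -0.40 against 12 h, both called (adjusted p = 1.1e-09 and 0.004), while without the second the change from 12 h to 48 h turned from -0.06 to 0.21.

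Upstream of Smad7, 3 adjacent intergenic peaks followed the course seen upstream of Lefty1. The peak centred 4.7 kb upstream had 189.8 and 159 at 0 h, 367 and 299 at 12 h, then 88.8 and 115 at 48 h. That at 7.3 kb had 133 and 139 at 0 h, 233 and 223 at 12 h, then 56.6 and 73.1 at 48 h. That at 8.5 kb had 23.6 and 27.6 at 0 h, 42.9 and 41.4 at 12 h, then 5.55 and 7.74 at 48 h. No libraries of different time points overlapped in any of the 3. At 12 h the nearer ones rose by 0.93 ± 0.21 and 0.74 ± 0.21 on the log2 scale (adjusted p = 0.0033 and 0.02), and the farthest was not called (0.72 ± 0.32, adjusted p = 0.13).

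From 12 h to 48 h the log2 changes of these peaks were -1.70 ± 0.21, -1.80 ± 0.23 and -2.62 ± 0.40, in order of distance (adjusted p = 2.5e-05, 2.5e-05 and 0.00015), calls that held under all 13 alternatives. Against 0 h they were -0.77 ± 0.22, -1.06 ± 0.23 and -1.90 ± 0.43 (adjusted p = 0.019, 0.0027 and 0.0038). The first of these missed the threshold in 6 alternatives, DESeq2 among them (adjusted p = 0.072, range 8.1e-05 to 0.2), and the others only without the second 0 h library (adjusted p = 0.071 and 0.08). The gain at 12 h of the nearest was lost without the second 0 h or the first 12 h library (adjusted p = 0.14 and 0.12), and that of the middle one without any 1 of the 0 h or 12 h libraries (adjusted p = 0.15 to 0.18).

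The Smad7 window also held both of the gains called at 48 h against 0 h. An exonic peak near the 3′ end of the gene, centred 27.3 kb downstream of the start (from 75394154), had 43.1 and 44.6 at 0 h, 38.6 and 33.1 at 12 h, then 112 and 61.1 at 48 h. Both 48 h libraries were highest but far apart. The gain of 0.96 ± 0.30 against 0 h (adjusted p = 0.031) was 0.48 without the first 48 h library (adjusted p = 0.26) and missed the threshold in 7 of 13 alternatives, DESeq2 among them (adjusted p = 0.095, range 1.1e-05 to 0.26). A weak intronic peak 5.5 kb downstream (from 75372719), with 9.24 and 9.55 at 0 h, 17.2 and 21.2 at 12 h, then 33.3 and 19.8 at 48 h, rose by 1.46 ± 0.44 (adjusted p = 0.026), a call lost with DESeq2 (adjusted p = 0.13) and without either 0 h or the first 48 h library (adjusted p = 0.14 to 0.2). Farther upstream, a strong peak at 24.5 kb had 398 and 518 at 0 h, 385 and 352 at 12 h, then 265 and 217 at 48 h, lowest at 48 h (log2 -0.93 ± 0.19, adjusted p = 0.0013). That call missed the threshold without the second 0 h library (adjusted p = 0.12). A weaker neighbour at 22.3 kb, with 53.4 and 60.5, then 72.9 and 75.4, then 33.3 and 30.1, fell from 12 h to 48 h (log2 -1.23 ± 0.28, adjusted p = 0.0042), but not without either 12 h library (adjusted p = 0.052 and 0.081). Against 0 h its call (log2 -0.85 ± 0.29, adjusted p = 0.049) held in 4 of 13 alternatives, with the replicate block among those that ended it (adjusted p = 0.053).

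**Figure D4:**
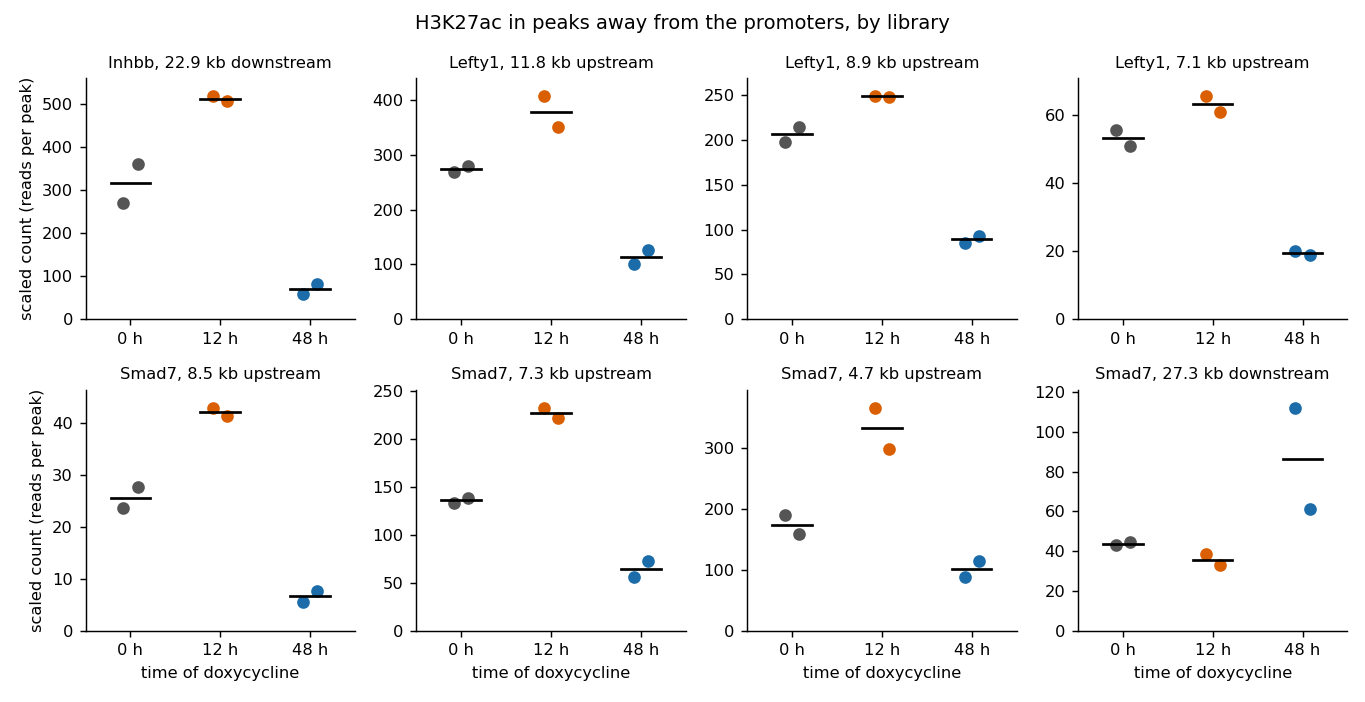
Scaled count (reads per peak, y axis from 0) of 8 peaks away from the promoters for the 2 libraries of each time point (points) and their mean (bars). In the first 7 panels the 12 h points are highest and the 48 h points lowest with no overlap, and the last panel shows the Smad7 peak that was highest at 48 h (112 and 61.1). The panels were selected. Inhbb was chosen for its loss at 48 h, and the other intergenic peaks had the lowest adjusted p of their gene from 12 h to 48 h. The last panel is the Smad7 peak with the largest gain from 12 h to 48 h.

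Of the promoter peaks alone, those of Nodal and Lefty1 were lower at 48 h than at 0 h. At 12 h, 1 of 6 promoter peaks rose, that of Lefty2 (1.77% of the 13138 promoter peaks of protein-coding genes rose), and none fell, beside 22.1% of all, with none lower at an unadjusted p under 0.05 or by DESeq2. With the offset for GC content 3 of 6 rose, since Nodal (log2 0.34, adjusted p = 0.049) and Lefty1 (0.42, adjusted p = 0.047) were then called as well. The share of all promoter peaks that rose with this offset is not given here, and the 1.77% belongs to the fit without it. At 48 h against 0 h, 2 of 5 fell, those of Nodal and Lefty1 (2.82% of all), and none rose, beside 4.08% of all, with none higher at an unadjusted p under 0.05 or by DESeq2. From 12 h to 48 h, 4 of 5 fell, all but Smad7 (2.37% of all), and none rose, beside 34.5% of all, and again none rose at an unadjusted p under 0.05 or by DESeq2. The median log2 change of the 5 from 12 h to 48 h was -0.52, beside 0.48 over all promoter peaks. These 5 are broad, at 3129 to 16775 bp beside a median of 676 bp over all merged peaks. The promoter peaks were not matched to them for width or GC content.

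Reads were also summed over all peaks of each window, for the 18209 genes with a peak. The scaling matters here, because the median window moved by -0.26 at 12 h and by 0.26 from 12 h to 48 h on the log2 scale, and by at most 0.03 with TMM factors or DESeq2. At 12 h the windows of Inhbb and Lefty2 rose, by 0.50 ± 0.17 and 0.28 ± 0.08 (adjusted p = 0.038 and 0.019), which is 0.76 and 0.54 above the median window. That is 2 of 6, beside 8.79% of all windows, and none fell, beside 31.1% of all, with none lower at an unadjusted p under 0.05 or by DESeq2. With TMM factors 72.1% of the 12 h calls over all windows were gains, against 22% with column totals, and the Nodal window was then called too (log2 0.29, adjusted p = 0.031). The Inhbb gain vanished with 10 kb flanks (log2 -0.02, adjusted p = 0.96), which leave out the downstream peak, and both gains were lost without any 1 of the 0 h or 12 h libraries (adjusted p = 0.09 to 0.27).

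At 48 h against 0 h the windows of Nodal, Lefty1 and Smad7 fell, by 0.54 ± 0.08, 0.52 ± 0.08 and 0.47 ± 0.13 (adjusted p = 0.0028, 0.0033 and 0.04). These are 3 of 5, beside 6.82% of all windows that fell and 6.85% that rose, and none of the 5 rose at an unadjusted p under 0.05 or by DESeq2. From 12 h to 48 h all 5 fell, by between 0.36 and 0.59 (adjusted p = 0.0033 to 0.044), beside 9.36% of all windows that fell and 37.3% that rose. All 5 were called with TMM factors and with DESeq2 too, although gains then made up 44.3% and 34.9% of the calls over all windows, against 79.9% with column totals. None of the 5 was called without the first or without the second 12 h library (adjusted p = 0.059 to 0.22). The call of the Smad7 window held in 4 of 11 alternatives, being lost also in the fit to the 4 libraries compared, with 10 kb flanks and without either 0 h library (adjusted p = 0.082 to 0.087), and its log2 change was -0.15 without the second 48 h library (adjusted p = 0.054). Against 0 h, the call of the Nodal window was lost without the second 0 h library (adjusted p = 0.075), that of Lefty1 without either 0 h library, and that of Smad7 in 6 of 11 alternatives (range 3e-10 to 0.34). The summed Inhbb window held 457 and 674 scaled counts at 0 h, 823.5 and 778 at 12 h, then 141 and 144.5 at 48 h, a log2 change of -1.98 at 48 h that was not tested.

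Levels between genes can be compared only per length. At 0 h the promoter peak of Smad7 was the densest, with 237 and 257 scaled counts per kb, followed by Tdgf1 with 207 and 206, Nodal with 123 and 124, Lefty2 with 122 and 114, Lefty1 with 105 and 88.9, and Inhbb with 58.9 and 95.4. Nodal and Lefty2 lay closer together than the 2 libraries of Lefty2 did, and the libraries of Lefty1 and Inhbb overlapped. At 48 h the order had changed, since Lefty2, at 109 and 119 per kb, lay above Nodal at 74.2 and 75.5. Smad7 (227 and 149) and Tdgf1 (133 and 185) then overlapped.

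Of 52 other ligands, receptors, transducers, antagonists, processing factors and targets, 42 had a promoter peak. At 12 h 3 of the 42 rose and 6 fell, beside 1.77% and 22.1% of all promoter peaks. At 48 h against 0 h 7 rose and 1 fell, beside 4.08% and 2.82%. The balance depended on the 48 h library, with mostly losses called without the first and mostly gains without the second. Shares over all promoter peaks in those fits are not given. Summed over the 42 peaks, scaled counts were 14386 and 14546 at 0 h, then 17252 and 14368 at 48 h. Between 12 h and 48 h 12 rose and 2 fell, beside 34.5% and 2.37%. The median log2 changes were -0.32, 0.10 and 0.39, beside -0.41, 0.06 and 0.48 over all promoter peaks.

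Among the other ligands, the promoter peak of Inha, the alpha subunit that turns activins into inhibins, rose at 12 h from 365 and 379 to 1043 and 964, and stood at 478.5 and 619 at 48 h. The 12 h libraries lay above all others, with a log2 change of 1.43 ± 0.17 (adjusted p = 2.3e-06) that held under all 13 alternatives. Inhbc, a beta subunit gene, fell from 12 h to 48 h (log2 -0.91 ± 0.20, adjusted p = 0.0032), though not without the second 12 h library (adjusted p = 0.12). Gdf1, a partner of Nodal, and Tgfb1 fell at 12 h (log2 -0.87 ± 0.23 and -1.25 ± 0.32, adjusted p = 0.013 and 0.0092). The Gdf1 call was lost with the offset for GC content (adjusted p = 0.07). It was also lost without either 0 h library or the second 12 h library (log2 -0.94 to -0.63). That of Tgfb1 was lost with DESeq2 (adjusted p = 0.051), and without the second 0 h library or either 12 h library (log2 -1.28 to -1.07). Gdf11 rose at 48 h (log2 1.10 ± 0.36, adjusted p = 0.043), a call that held in 6 of 13 alternatives. Without the first 48 h library its log2 change was 0.26.

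Between 0 h and 48 h the 5 receptor genes with a peak had log2 changes from -0.16 to 0.39, and the 7 transducer genes from -0.32 to 0.34, all with an adjusted p of at least 0.22. The type I receptor gene Acvr1b had 198 and 235 at 0 h, 106 and 102 at 12 h, then 248 and 142 at 48 h, the 12 h libraries being lowest, and its log2 change at 12 h was -1.05 ± 0.24 (adjusted p = 0.0044), lost without the second 0 h library or either 12 h library (adjusted p = 0.062 to 0.14). For the type II receptor gene Acvr2b the log2 change at 48 h was 0.31 ± 0.19 (adjusted p = 0.31), for Smad3, which carries the signal, 0.34 ± 0.21 (adjusted p = 0.32), and for Foxh1 0.13 ± 0.15 (adjusted p = 0.61). Acvr2a, Acvr2b and Smad3 were called higher at 48 h with the offset for GC content (log2 0.61, 0.50 and 0.55, adjusted p = 0.0031, 0.0059 and 0.0063) and without the second 48 h library (0.64, 0.60 and 0.67, adjusted p = 0.00092, 8.6e-05 and 0.00012). From 12 h to 48 h Acvr1b, Acvr2a, Tgfbr2, Smad3 and the Smad anchor gene Zfyve9 rose, by between 0.65 and 1.20 (adjusted p = 0.013 to 0.035), beside the median of 0.48 over all promoter peaks, and none of these calls held without either 12 h library.

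In the antagonist list 1 of 13 genes with a peak rose at 12 h and at 48 h, namely Skil, which encodes the Smad co-repressor SnoN. It had 1779.5 and 1705 at 0 h, 2702 and 2612 at 12 h, then 2457 and 2303 at 48 h, lowest at 0 h without overlap (log2 0.61 ± 0.13 and 0.45 ± 0.13, adjusted p = 0.0025 and 0.021). Both calls were lost without any 1 of the 4 libraries of 0 h and 12 h (adjusted p = 0.053 to 0.28). Its relative Ski and the ubiquitin ligase gene Nedd4l rose from 12 h to 48 h (log2 0.87 ± 0.25 and 0.75 ± 0.22, adjusted p = 0.017 and 0.021), beside the median of 0.48. Both calls were lost without either 12 h library (adjusted p = 0.089 to 0.26) and without the first 48 h library (log2 0.35 and 0.45, adjusted p = 0.23 and 0.092), and that of Nedd4l also in the fit to the 4 libraries compared (adjusted p = 0.051). Furin and Ncln, both entered in the list under processing, fell at 12 h (log2 -0.88 ± 0.28 and -0.62 ± 0.20, adjusted p = 0.035 and 0.037). TMM factors, DESeq2 and the offset for GC content each ended these calls. The heading is that of the list and says nothing of how Ncln acts.

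Of 10 genes listed as targets, 6 had a promoter peak. Whether they answer to the pathway in these cells was not tested. Of these 6, 4 rose and 1 fell at 48 h against 0 h, beside 4.08% and 2.82% of all promoter peaks. Those named here are 3 of the 4 that rose. Otx2, a head and neural transcription factor, had 136 and 89.2 at 0 h, 248 and 226 at 12 h, then 217 and 273 at 48 h (log2 1.12 ± 0.22 at 48 h, adjusted p = 0.0011), missing the threshold without the second 0 h library (adjusted p = 0.12). Id1, which encodes an inhibitor of bHLH factors, went from 123 and 153 to 176 and 199.6 and then to 403 and 244 (log2 1.22 ± 0.23, adjusted p = 0.00059). Both later time points of Otx2 lay above 0 h, whereas Id1 was highest at 48 h. Fgf5 rose too, from 4.10 and 6.37 to 24.4 and 13.8 (adjusted p = 0.033), but not by DESeq2 (adjusted p = 0.15). Its call was also lost without either 0 h library or the first 48 h library (log2 1.38 to 2.16).

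**Figure D5:**
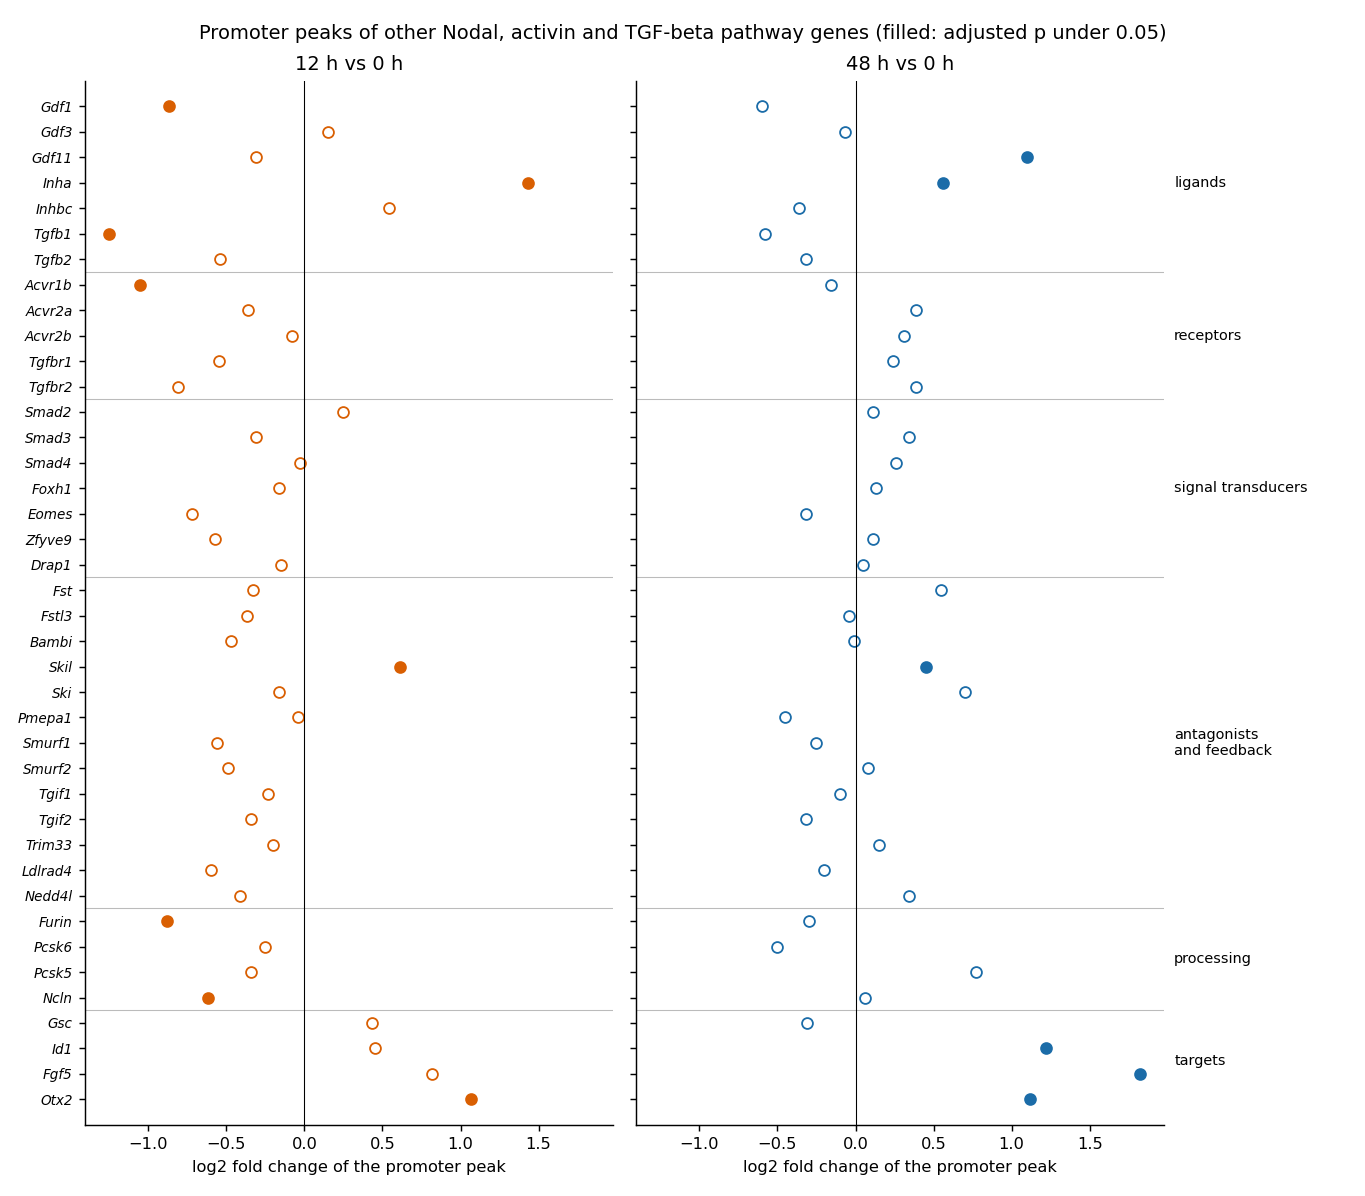
Log2 fold change (x axis) of the promoter peak of 40 of the 42 other pathway genes, in rows grouped by role, for 12 h against 0 h (left) and 48 h against 0 h (right). Filled points were called at an adjusted p under 0.05, 8 at 12 h and 6 at 48 h, and the 6 at 48 h all lie above 0.

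The promoter peaks most like those of the pathway genes were sought by Pearson's r of log2(scaled count + 8) over the 6 libraries, among 2649 promoter peaks with a mean count of at least 50 and a log2 range of at least 1. With 6 libraries that share depth and time, such r values are a description. For Inhbb the closest were Zfhx3 (r = 0.9778), Chrna9 (0.9774) and Ttll6 (0.963). For Nodal they were Cd37 (0.9915), Synj2 (0.9891) and Fgr (0.9886), and for Lefty1 they included Fgr (0.9822) and Synj2 (0.9654). The mean scaled count of Cd37 went from 419 at 0 h to 579 at 12 h and 159 at 48 h, and that of Synj2 from 356 to 526 to 194.5.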

How the data were processed

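H3K27ac ChIP-seq libraries of A2Lox mouse embryonic stem cells with inducible NeuroD1 were compared at 0, 12 and 48 h (2 libraries each). An input library is named in the labels and was not analysed here. The authors used Bowtie2 (local mode, mm10) and SAMtools 0.1.19 for alignment, ran MACS2 with the input as control, joined the peaks of all samples into one merged set, and deposited raw counts of reads per merged peak made with qCount of QuasR. Merging fixes each peak to the widest extent, so a broad peak can join the signal of 2 genes, and counts are not corrected for peak width.

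From these counts, windows (gene body plus 30 kb) and promoter peaks (the peak of highest mean count within 2 kb of a protein-coding start) were set with GENCODE M21. One edgeR 4.0.16 quasi-likelihood model (R 4.3.3) was fitted to all 66841 peaks and 6 libraries, with time as the factor and column totals as offsets. The biological coefficient of variation was 14.9%, with 3 residual degrees of freedom. A second fit used counts summed over 18209 gene windows. P-values were adjusted by Benjamini-Hochberg at 0.05, and standard errors were taken from the log2 change and its F statistic. Alternatives were TMM factors, DESeq2 1.42.0, at least 10 counts in 2 libraries, an offset for GC content (lowess span 0.3), the replicate block, only the 4 libraries compared, 10 kb flanks and leaving out each library.

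Libraries with the same replicate number did not deviate together (r of the R1 minus R2 differences of -0.047 for 0 h and 12 h, -0.108 for 0 h and 48 h and 0.113 for 12 h and 48 h, over 33752 peaks), so the numbers were not used to pair them. No library was identical to another. The 7 genes, the gene lists, the motifs and the tests were chosen with earlier results of these data known. Named peaks were, for each gene, the promoter peak, the strongest other peak and every called peak (at most 8, by adjusted p), for Inhbb every peak; from the pathway list, genes called in any comparison (at most 20) plus Foxh1, Smad3, Acvr1b and Acvr2b. The printed sequence stretches were picked after the values of their peaks were seen. ChIP reads carry no molecular identifiers, and a table of counts over called peaks gives no depth outside them. Some genes and peaks that these rules name are not reported here.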

Additional observations from a re-analysis of the deposited data

Results flagged for a closer look

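The change since 0 h differed between 12 h and 48 h, by the direct test of 48 h against 12 h in edgeR, in both the promoter peak and the summed window of 4 genes. The log2 difference was -0.98 for the Nodal promoter peak and -0.59 for its window, -1.17 and -0.55 for Lefty1, -0.47 and -0.46 for Lefty2, and -0.52 and -0.55 for Tdgf1. For Smad7 the window differed (-0.36) and the promoter peak did not pass the test (-0.06). In all 9 cases the 48 h value was the lower. The 9 values share peaks between the Lefty windows and between promoter and window. The calls of the 5 windows were lost without either 12 h library. Over all windows the median moved by 0.26 in the same comparison, and against it the 5 window values stood between -0.62 and -0.85. Summed promoter peaks of the 8 stem cell markers moved in the same direction, and their part in these differences was not tested.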

How the results depend on the processing

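For peaks of member loci called at 12 h against 0 h (7), DESeq2 gave 4, only the 4 libraries compared 17, 10 kb flanks 4, and leaving out a library 0 to 17. At 48 h against 0 h (17) DESeq2 gave 9, the 4 libraries 10 and leave-outs 4 to 17, and at 48 h against 12 h (18) 10 kb flanks gave 11 and leave-outs 8 to 24. For summed windows, 10 kb flanks gave 1 at 12 h in place of 2, and leave-outs 0 to 3, 0 to 5 and 0 to 5 in the 3 comparisons (2, 3 and 5). For pathway list promoter peaks at 12 h (9), DESeq2 gave 5, the 4 libraries 21 and leave-outs 1 to 21, at 48 h against 0 h (8) DESeq2 gave 4, the 4 libraries 3, the GC offset 14 and leave-outs 1 to 18, and at 48 h against 12 h (14) the 4 libraries gave 8 and leave-outs 2 to 28. The cause was not tested. Shares over all peaks, windows or promoter peaks are not given for these fits, so the counts show only the dependence on the fit. A leave-out leaves 1 library in its time point, assumed to vary like the others.

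Directions turned as follows, as log2 values. The Inhbb peak from 119421216 at 12 h was 0.34 with the GC offset and ran from -0.40 to 0.30 over the leave-outs, that from 119388912 from -0.47 to 0.70, that from 119420153 from -0.31 to 0.78, and that from 119390444 at 48 h from -1.15 to 1.38. At 48 h against 12 h, the leave-outs of the Tmem63a promoter (Lefty1 peak from 180941589) ran from -0.35 to 0.14, of the Smad7 promoter (from 75365035) from -0.40 to 0.21 and of Otx2 from -0.13 to 0.20. At 48 h against 0 h they ran from -0.61 to 0.20 for Acvr1b, -0.17 to 0.26 for Ncln, -0.18 to 0.84 for Tgfbr2, -0.19 to 0.38 for Zfyve9 and -0.82 to 0.11 for Furin. At 12 h the Inhbb window was -0.02 with 10 kb flanks, the Smad7 window 0.13 with TMM factors and 0.14 with DESeq2, and the GC offset gave 0.19 for Ski and 0.33 for Acvr2b.

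Of 40 calls on named member peaks, 26 held in every alternative other than the leave-outs and 11 in all alternatives. Over all merged peaks, gains made up 62.2%, 61.1% and 56.0% of the calls in the 3 comparisons, against 74.2%, 70.5% and 56.1% with TMM factors.

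The replicate numbers are no pairing here. With the replicate block, member peaks called were 6, 16 and 19, windows 2, 3 and 5, and pathway list genes 9, 9 and 14. Among the peaks, windows and genes named here, the calls it ended were those of the Lefty2 promoter peak at 12 h and of the Smad7 peak from 75344594 at 48 h against 0 h, the Ski promoter peak was called with it at 48 h against 0 h, and it changed no other call among them. Over the member peaks not named it gave, on balance, 1 more loss at 48 h against 12 h. With the 0 h numbers crossed, an alternative chosen after seeing the data, member peaks called were 9, 18 and 19.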
